A study of Caenorhabditis elegans with 2 samples.

Results

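The mitochondrial ribosomal protein genes of Caenorhabditis elegans were taken as the protein-coding genes of the Ensembl release 115 annotation (WBcel235) whose names begin with mrpl- (large subunit) or mrps- (small subunit), 70 of 19973 protein-coding genes, 41 of them mrpl and 29 mrps. They were examined in a chromatin immunoprecipitation and sequencing (ChIP-seq) study of the zinc finger protein ZTF-3 in whole young adult worms, 58 h old, of mixed sex. Both samples, labelled biological replicates 4 and 5, came from the strain OP614, which carries the integrated transgene wgIs614, a C-terminal TY1, EGFP and 3xFLAG fusion of ztf-3, and a rescuing copy of unc-119, in an unc-119(tm4063) background. The worms had been synchronised as starved L1 larvae after bleaching, the chromatin was sonicated, and the fusion protein was precipitated with an antibody to GFP. There was 1 group of 2 replicates, their region lists were made against 1 control, and no untagged strain was analysed here. The tagged protein is the transgene's, and in whole worms a site bound in few cells and a site weakly bound in many cells cannot be told apart.

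The mitochondrial ribosome translates the few respiratory chain proteins encoded by the mitochondrial genome. Its RNAs come from that genome, but all of its proteins are encoded in the nucleus and imported. Its large subunit forms peptide bonds, and its small subunit reads the messenger RNA. In C. elegans, knockdown of some of these genes, mrps-5 among them, is known to slow mitochondrial translation, switch on the mitochondrial unfolded protein response and lengthen life. Many worm genes, including many for mitochondrial proteins, lie head to tail in operons, in which a downstream gene can lack a promoter of its own.

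For each gene the strongest region of the pooled list was taken whose summit lay from 1000 bp upstream to 200 bp downstream of an annotated start site, the promoter window. The pooled list holds 30000 candidate regions, peaks together with background, so a candidate is not by itself a binding site. Strength is the deposited signal, the authors' own score per region against the control, and rank 1 is the strongest region of a list. A region was called thresholded when it was among the 534 that passed the authors' irreproducible discovery rate (IDR) step, which compares ranks of regions between lists. These 534 were also the 534 strongest regions of the pooled list. A region was counted in a replicate when the pooled summit lay inside a region of that replicate's own list of 30000, the best-ranked where several held it. A thresholded region need not be in both replicates: that of try-3 (pooled rank 435) had rank 250 in replicate 4 and none in replicate 5. Signals of the pooled list and of the replicates' lists are on different scales, with medians of 28.0 in the pooled list, 22.6 in replicate 4 and 9.86 in replicate 5, and were compared only within a list. No test was made of any list of genes against others, since the genes are not replicates and were chosen with earlier results known.

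Of the 70 genes, 38 (54.3%) had a candidate in the promoter window, beside 35.5% of all protein-coding genes (7097 of 19973). They were 24 of the 41 mrpl genes (58.5%) and 14 of the 29 mrps genes (48.3%). The 38 genes held 37 regions, because mrpl-1 and mrps-24 shared 1. A thresholded region stood at 1 of the 38 genes, mrpl-23, which is 2.63%, beside 4.35% of all genes with a candidate (309 of 7097). The median pooled rank of the 38 was 11004.5, beside 12149 for all genes with a candidate, and their median signal was 31.2, beside 30.1. The share of genes with a candidate was thus above the background share, while the median signal was close to that of all genes. With a window starting 500 bp upstream, 0 of the genes had a thresholded region.

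The sequences below span 50 bp on each side of the summits of 5 of the 7 genes of highest signal, read from the ce11 assembly on the strand of each gene, 5′ to 3′. They are shown as DNA under strong candidate summits of these genes, without the stretches at mrpl-23 and mrps-35, whose signals were higher. They lie at II:289005-289105 (mrpl-41), IV:14767846-14767946 (mrps-7), V:8466508-8466608 (mrpl-4), II:8929137-8929237 (mrpl-50) and II:156042-156142 (mrpl-28). Capitals mark matches to the short motifs described further on, which were AGACGCAG at mrps-7 and ACACAC at mrpl-28. The mrpl-41 stretch covers the gene's own coding exon, and the mrpl-50 stretch covers a coding exon of the neighbouring gene cct-2. The first 49 bases of the mrpl-4 stretch belong to a small nucleolar RNA (snoRNA) gene in an intron of mrps-2. The mrps-7 and mrpl-28 stretches are intergenic.
mrpl-41: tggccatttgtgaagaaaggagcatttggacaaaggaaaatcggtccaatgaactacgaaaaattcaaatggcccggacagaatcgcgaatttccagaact
mrps-7: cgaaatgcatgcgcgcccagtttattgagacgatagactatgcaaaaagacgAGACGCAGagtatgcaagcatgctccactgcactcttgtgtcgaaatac
mrpl-4: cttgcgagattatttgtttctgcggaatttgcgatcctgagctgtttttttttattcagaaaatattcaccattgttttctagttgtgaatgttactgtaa
mrpl-50: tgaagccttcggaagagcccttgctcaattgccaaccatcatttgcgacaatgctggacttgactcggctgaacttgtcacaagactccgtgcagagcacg
mrpl-28: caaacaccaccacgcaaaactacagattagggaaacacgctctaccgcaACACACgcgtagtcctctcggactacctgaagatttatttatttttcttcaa

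Below mrpl-23 the signals of the 38 candidates fell off gradually, from 65.5 at mrps-35. Pooled signals ran from 20.4 at mrpl-30 to 106 at mrpl-23, and 7 genes (18.4%) were among the 2000 strongest pooled regions, beside 12.3% of all genes with a candidate. Among ranks 1 to 7500 of the pooled list lay 11 of the 38 (28.9%), beside 34.5% of all genes with a candidate. Ranks 7501 to 15000 held 13 (34.2%, beside 24.5%), ranks 15001 to 22500 held 6 (15.8%, beside 20.6%) and ranks 22501 to 30000 held 8 (21.1%, beside 20.4%). The share in the strongest of these bins was thus below that of all genes, and the share among the 2000 strongest was above it.

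**Figure D1:**
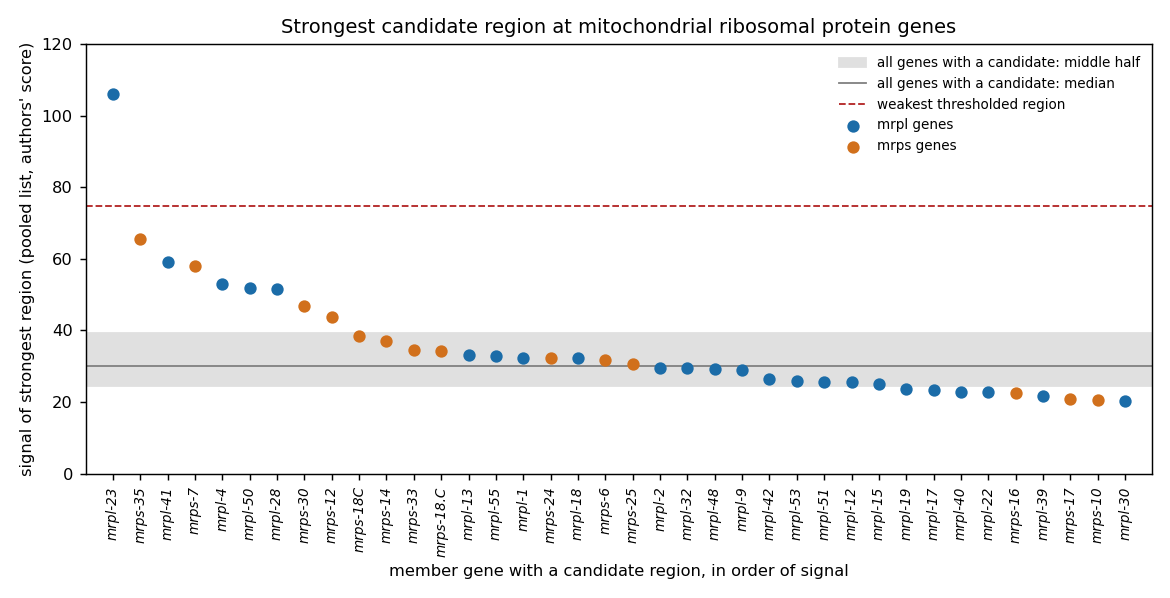
Signal of the strongest candidate region in the promoter window (pooled list, authors' score) for each of the 38 mitochondrial ribosomal protein genes that had one, in order of signal, with mrpl genes in blue and mrps genes in orange. The grey band and line are the middle 50% and the median of all 7097 genes with a candidate, and the dashed line is the weakest of the 534 thresholded regions, at 74.7; mrpl-23 alone lies above it, at 106.

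The strongest candidate was at mrpl-23, which encodes uL23m, a large subunit protein at the mouth of the tunnel through which new peptides leave. The region, I:6212616-6213059 on ce11, had a pooled signal of 106 (rank 193). Its signal was 76.5 in replicate 4 (rank 224) and 29.95 in replicate 5 (rank 259), so it stood near the top of both lists. The summit lay 953 bp upstream of mrpl-23, in an intron of fars-1, a phenylalanyl-tRNA synthetase gene that ends 95 bp before mrpl-23 on the same strand. It was also 14 bp from the snoRNA gene T08B2.13, which lies in that intron. The summit lay inside the non-coding RNA gene T08B2.14, on the other strand, and inside an annotated pseudogene on the same strand. The summit of replicate 4's own region was displaced by 66 bp and fell outside the promoter window, while that of replicate 5 was displaced by 2 bp and stayed in it. The part of the snoRNA gene, of T08B2.14, of the pseudogene, of fars-1 and of mrpl-23 in the signal was not tested. The deposited −log10 q of the region was 2.11. The last thresholded region of the list had a signal of 74.7 (rank 534) and a −log10 q of 1.95, and the gene next below the threshold, mrps-35, had 65.5 and 1.91.

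mrps-35 encodes mS35, a small subunit protein found in mitochondrial and not in bacterial ribosomes. Its region, V:18980973-18981416, had a pooled signal of 65.5 (rank 778), with 38.2 in replicate 4 (rank 2317) and 21.9 in replicate 5 (rank 855). Its rank was higher in replicate 5 than in replicate 4. The summit lay 111 bp upstream of mrps-35 in an untranslated region (UTR) of sws-1, a gene on the other strand that overlaps the start of mrps-35, and the start site nearest the summit was that of sws-1. A second summit in the window, 100 bp downstream of the mrps-35 start, had a signal of 29.6 (rank 12780).

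Both mrpl-41 and mrps-7 were strong in replicate 4 and weak in replicate 5. mrpl-41 encodes mL41, a mitochondria-specific large subunit protein. Its region, II:288833-289276, had a pooled signal of 59.2 (rank 1104), with 46.0 in replicate 4 (rank 1108) and 10.4 in replicate 5 (rank 13033). The summit lay 116 bp downstream of the start, in the gene's coding exon, where the sequence printed above was read. mrps-7 encodes uS7m, a small subunit protein of the head domain that also exists in bacterial ribosomes. Its region, IV:14767674-14768117, had a pooled signal of 58.1 (rank 1165), with 46.4 in replicate 4 (rank 1077) and 9.84 in replicate 5 (rank 15088). The summit lay 166 bp upstream in the intergenic stretch shared with the divergent gene Y57G11C.3, and the pooled signal therefore cannot be given to either gene alone. In replicate 5 the mrps-7 region was at about the median signal of that list, 9.86.

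mrpl-4 encodes uL4m, a large subunit protein that lines the peptide exit tunnel. Its region, V:8466336-8466779, had a pooled signal of 53.0 (rank 1608), with 39.9 in replicate 4 (rank 1947) and 10.5 in replicate 5 (rank 12782). This gene too was high in replicate 4 and low in replicate 5. The summit lay 707 bp upstream of mrpl-4 and 2 bp from the snoRNA gene T23B12.13, in an intron of mrps-2. mrps-2 encodes uS2m, another mitochondrial ribosomal protein, and ends 105 bp before mrpl-4 on the same strand. The summit was 872 bp downstream of the mrps-2 start, so mrps-2 itself had no candidate in its window.

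The strongest genes with ranks under 5000 in both replicates, apart from mrpl-23 and mrps-35, were mrpl-50 and mrpl-28. mrpl-50 encodes mL50, a mitochondria-specific large subunit protein. Its region, II:8928965-8929408, had a pooled signal of 51.8 (rank 1761), with 33.3 in replicate 4 (rank 4005) and 18.5 in replicate 5 (rank 1699). The summit lay 654 bp upstream, in a coding exon of cct-2, a subunit of the cytosolic chaperonin, which ends 25 bp before mrpl-50 on the same strand. The replicates' own summits lay 130 bp from it on one side (replicate 4) and 93 bp on the other (replicate 5), and with replicate summits held to within 100 bp of the pooled one the gene was not in both lists. A second summit, 92 bp past the mrpl-50 start in its own coding exon, had a signal of 39.9 (rank 4766; rank 8375 in replicate 4 and 4185 in replicate 5). mrpl-28 encodes bL28m, a large subunit protein shared with bacteria. Its region, II:155870-156313, had a pooled signal of 51.5 (rank 1800), with 34.9 in replicate 4 (rank 3354) and 14.6 in replicate 5 (rank 4331). Its summit was intergenic, 83 bp upstream of mrpl-28, and no other gene's window held it.

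**Figure D2:**
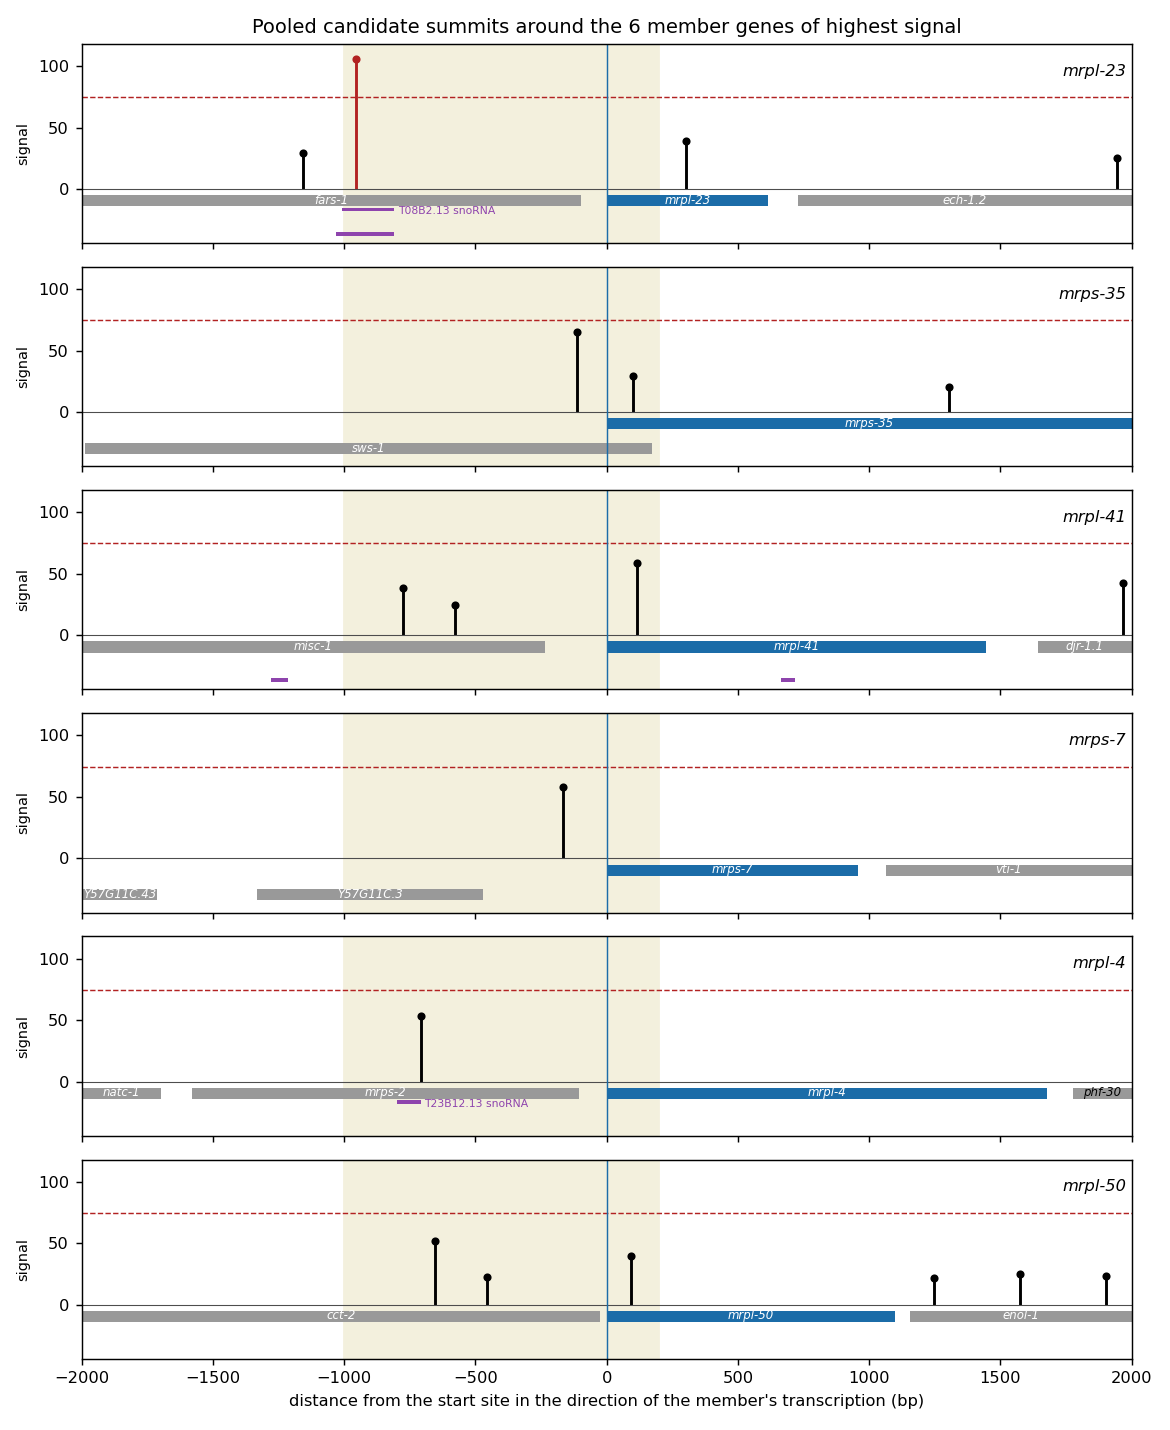
Pooled candidate summits within 2000 bp of the start sites of the 6 genes of highest signal, each drawn in the direction of the gene's transcription; stem height is the signal, the shaded band the promoter window, and the dashed line the weakest thresholded signal, 74.7. Blue bars are the named gene and grey bars other protein-coding genes (upper row the same strand, lower row the other strand). Purple bars are small or non-coding RNA genes and, at mrpl-23, also a pseudogene. The summits of mrpl-23, mrpl-4 and mrpl-50 lie over an upstream gene on the same strand, 953, 707 and 654 bp from the start.

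The next 3 genes were all named for the small subunit. mrps-30, at rank 2578 with a pooled signal of 46.7, had 24.96 in replicate 4 (rank 11188) and 17.8 in replicate 5 (rank 2013), and its summit lay in its own coding exon, 80 bp past the start. mrps-12 encodes uS12m, a protein of the decoding centre. It had a pooled signal of 43.7 (rank 3355), 26.1 in replicate 4 (rank 9745) and 12.7 in replicate 5 (rank 7168), and its summit lay 82 bp past the start in its own coding exon. Neither was near the top of both replicates. mrps-18C had a pooled signal of 38.5 (rank 5374), 30.7 in replicate 4 (rank 5598) and 17.0 in replicate 5 (rank 2402), with an intergenic summit 143 bp upstream. The summit of replicate 5's region was displaced by 214 bp and lay 71 bp past the start. It was closer to a second pooled summit, 58 bp past the start, with a signal of 23.4 (rank 22789). The rank of 2402 in replicate 5 thus goes with that weaker summit. The RefSeq product of mrps-18C is the large subunit protein uL3m, so its name and its annotated product belong to different subunits.

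A few weaker pooled candidates ranked among the 2000 strongest regions of 1 replicate. mrps-14 encodes uS14m, and its pooled signal of 37.0 (rank 6218) came with 39.7 in replicate 4 (rank 1974) and no region in replicate 5. Its summit lay 142 bp upstream in a UTR of nrde-2, a nuclear RNA interference gene that ends 105 bp before it. mrpl-32 encodes bL32m, and its pooled signal of 29.5 (rank 12913) came with 19.96 in replicate 5 (rank 1226) and no region in replicate 4. Replicate 4 instead held a region of its own at mrpl-32, 949 bp upstream, with a signal of 35.8 (rank 3027), so the replicates placed their strongest summits at different points of this promoter window. mrpl-30 had the weakest pooled candidate (20.4, rank 29963), 95 bp past its start, which fell inside a replicate 4 region of signal 56.6 (rank 558) and in no replicate 5 region. That replicate 4 region was centred on a stronger pooled summit 295 bp past the start with a signal of 63.0 (rank 891; rank 7675 in replicate 5), just outside the window. The rank 558 therefore belongs to the neighbouring summit, since the best-ranked region that held the pooled summit was taken. Replicate 4 also held a weaker region with its summit inside the window, 99 bp past the start, with a signal of 23.0 (rank 14215).

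The other candidates had pooled signals near or below the median of all genes with a candidate, 30.1. For mrps genes these were mrps-33 (34.5), mrps-18.C (34.2), mrps-24 (32.3), mrps-6 (31.9), mrps-25 (30.5), mrps-16 (22.4), mrps-17 (20.9) and mrps-10 (20.6). Apart from mrpl-32, the mrpl genes with pooled signals from 29.0 to 33.2 were mrpl-13 (33.2), mrpl-55 (32.8), mrpl-1 (32.3), mrpl-18 (32.2), mrpl-2 (29.5), mrpl-48 (29.1) and mrpl-9 (29.0). Apart from mrpl-30, the mrpl genes with lower pooled signals were mrpl-42 (26.4), mrpl-53 (25.8), mrpl-51 (25.7), mrpl-12 (25.5), mrpl-15 (24.96), mrpl-19 (23.6), mrpl-17 (23.4), mrpl-40 (22.7), mrpl-22 (22.7) and mrpl-39 (21.8). The 6 candidates that neither replicate's list held were all in these groups: mrpl-17, mrpl-40, mrps-16, mrpl-39, mrps-17 and mrps-10.

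The replicates shared 19 of the 38 candidates (50%), beside 40.4% of all genes with a candidate (2865 of 7097). With replicate summits held to within 100 bp of the pooled one, the shares were 28.9% and 27.4%. Replicate 4 held 26 (68.4%, beside 80.9%) and replicate 5 held 25 (65.8%, beside 54.0%). Those in replicate 4 alone were 7 (18.4%, beside 40.5%), those in replicate 5 alone were 6 (15.8%, beside 13.6%), and 6 (15.8%, beside 5.55%) were in neither. Against all genes, the share found in replicate 4 alone was lower and the share found in neither list was higher, differences that were not tested. Of the 38, 4 lay among the 5000 strongest regions of both replicates (10.5%, beside 8.92% of all genes with a candidate), namely mrpl-23, mrps-35, mrpl-50 and mrpl-28. With a window starting 500 bp upstream this count was 2 (6.06%, beside 9.03%). Over the 19 genes in both lists, Spearman's rho between the replicates' signals was 0.40, and over the 2865 genes it was 0.438; both describe regions of the same 2 libraries and 1 control. The pooled summit and the replicate's summit were a median of 12.5 bp apart in replicate 4 (26 genes) and 49 bp apart in replicate 5 (25 genes).

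**Figure D3:**
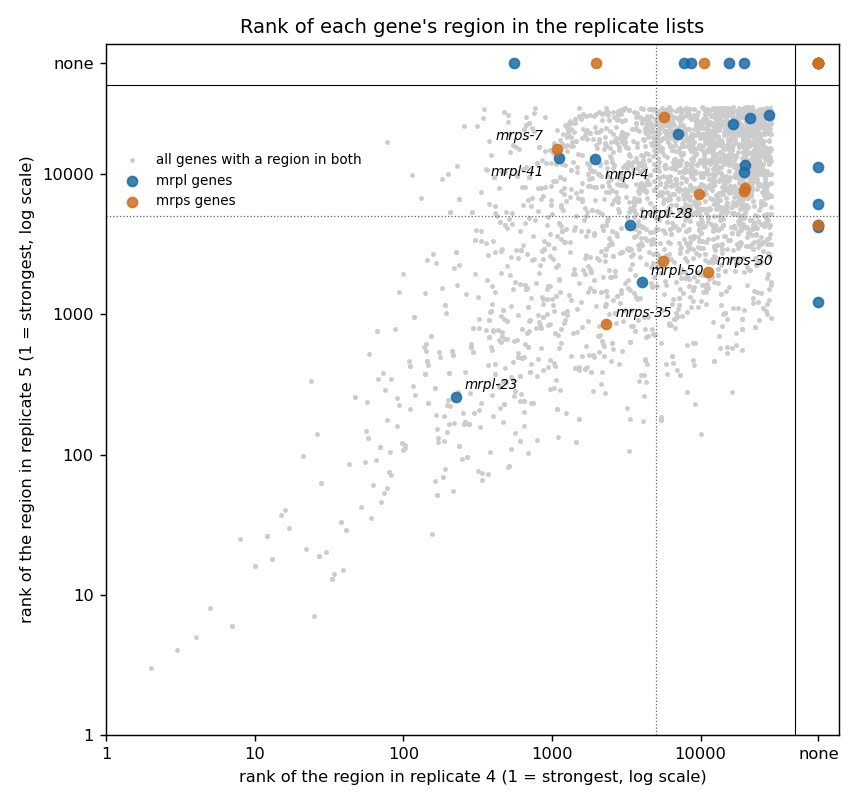
Rank of the region holding each gene's pooled summit in replicate 4 (horizontal) and replicate 5 (vertical), log scales, 1 being the strongest; blue and orange points are mrpl and mrps genes, grey points are all 2865 genes with a region in both lists, and dotted lines mark rank 5000. Genes absent from a list are drawn at none; mrpl-23 is near the top of both, while mrps-7, mrpl-41 and mrpl-4 are under rank 2000 in replicate 4 and beyond rank 10000 in replicate 5.

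Most summits lay close to a start site. The median position was -140.5 bp (negative is upstream), beside -281 bp for all genes with a candidate. No more than 200 bp separated 24 of them (63.2%) from a start, beside 42.5%, and 6 (15.8%) lay more than 500 bp upstream, beside 34.1%. Those upstream of the start were 28 (73.7%, beside 78.0%). Among the 7 genes of highest signal, mrps-35, mrpl-41, mrps-7 and mrpl-28 had summits within 200 bp of a start, and mrpl-23, mrpl-4 and mrpl-50 were among the 6 far upstream. Distances were taken from the closest annotated start in whose window the summit lay. At mrpl-2, another of the 6, that start lay inside the gene. Its summit, 834 bp upstream of that start, was in the gene's own intron. Nuclear respiratory chain genes, a list described further on, had a similar median of -108 bp, with 60% within 200 bp and 17.1% more than 500 bp upstream. Cytosolic ribosomal protein genes had -316 bp, 23.9% and 26.1%. The difference in position between the mitochondrial ribosomal protein genes and other genes was not tested.

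**Figure D4:**
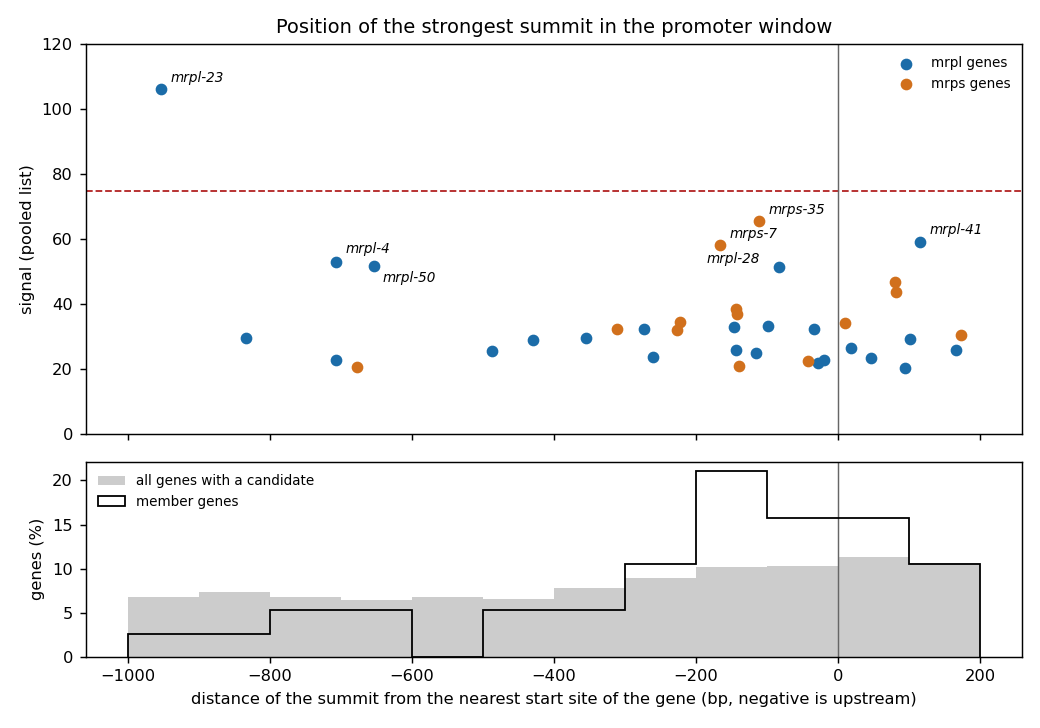
Upper panel, distance of the strongest candidate summit from the gene's nearest start site (bp, negative is upstream) against its pooled signal for the 38 genes, mrpl in blue and mrps in orange, with the weakest thresholded signal, 74.7, as a dashed line. Lower panel, the share of genes per 100 bp of distance for these genes (outline) and for all 7097 genes with a candidate (grey); 63.2% and 42.5% lie within 200 bp of a start.

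The genes sat close to their neighbours. A gene on the same strand ended within 500 bp upstream of 28 of the 70 (40.0%), beside 19.8% of all protein-coding genes, with a median gap of 105 bp (range -105 to 460 bp, negative being an overlap). Among the 38 with a candidate this held for 17 (44.7%), beside 22.7%. For 21 of the 38 (55.3%, beside 21.9%) the summit also lay in another gene's promoter window, and for 7 the nearest start site was another gene's. The summit lay in intergenic DNA at 15 genes, in a coding exon at 10, in a UTR at 6, in an intron at 6, and in a UTR of one gene and a coding exon of another at 1. It lay in the gene's own body at 11 and solely in another gene's body at 12. A pooled signal at these genes is thus in many cases shared with a neighbour, and the regions, all 444 bp wide, do not resolve the pair.

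The shared region of mrpl-1 and mrps-24 was one such case. mrps-24, which encodes uS3m, and mrpl-1 had their common summit 311 and 33 bp upstream of their starts, in a UTR of emc-6. The pooled signal was 32.3 (rank 9844), with 14.6 in replicate 5 (rank 4308) and no region in replicate 4. Small RNA genes, which stood within 500 bp of the summit at mrpl-23 and mrpl-4 (2 of 38, 5.26%, beside 3.58%), were both snoRNA genes in introns of the upstream gene. The median GC content of the summit and the 50 bp on each side of it was 37.6% (range 19.8 to 53.5%), beside 41.6% for all genes with a candidate.

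Short motifs that earlier work on these data had singled out were searched in the same stretch at each summit, on both strands. They were AGAGAC and GAGAGA, a CA repeat unit (ACACAC), and AGACGCAG together with its parts ACGCAG and also GACGCA. At least 1 was present at 8 of the 38 genes (21.1%), beside 23.2% of all 7097 genes with a candidate. ACACAC was present at 4 (10.5%, beside 6.38%), namely mrpl-15, mrpl-18, mrpl-28 and mrps-17. ACGCAG (5.26%, beside 4.97%) and GACGCA (5.26%, beside 4.79%) were both present at mrpl-32 and mrps-7, and AGACGCAG at mrps-7 alone (2.63%, beside 2.25%). AGAGAC was present at mrpl-23 alone (2.63%, beside 6.85%), and GAGAGA at mrpl-22 alone (2.63%, beside 10.6%). Perfect GT/CA or AG/CT dinucleotide runs of at least 20 bp, within 200 bp of the summit at 0.62% and 0.338% of all genes with a candidate, were present at none of the 38.

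The 32 genes without a candidate were 17 mrpl and 15 mrps genes. The mrpl genes were mrpl-10, mrpl-11, mrpl-16, mrpl-20, mrpl-21, mrpl-24, mrpl-34, mrpl-35, mrpl-36, mrpl-37, mrpl-38, mrpl-44, mrpl-45, mrpl-46, mrpl-47, mrpl-49 and mrpl-54. The mrps genes were mrps-2, mrps-5, mrps-9, mrps-11, mrps-15, mrps-18A, mrps-18B, mrps-21, mrps-22, mrps-23, mrps-26, mrps-27, mrps-28, mrps-31 and mrps-34. Their nearest pooled summit was a median of 1495.5 bp from a start (range 203 to 11077 bp) and within 1500 bp at 16. At mrps-5, which encodes uS5m, it lay 664 bp downstream of the start with a signal of 32.0 (rank 10175), within the range of the candidates above. Replicate 4's own list held a summit in the mrps-5 window, 357 bp upstream, with a signal of 22.6 (rank 15006). Absence from the pooled list was not absence from the replicates: 13 of the 32 (40.6%) had a summit in the window in the list of 1 replicate, beside 27.3% of all genes without a pooled candidate in the list of at least 1. Of the 70 genes, 19 (27.1%) had none in any list, beside 46.9% of all protein-coding genes. Taken alone, replicate 4's list held candidates at 29 of the 70 genes (41.4%), beside 35.6% of all protein-coding genes, with a median rank of 9745, beside 12212. Replicate 5's list held candidates at 38 (54.3%), beside 35.8%, with a median rank of 11311, beside 12587. The distance from the share over all genes was thus smaller in replicate 4 alone than in the pooled list or in replicate 5 alone.

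Within 1500 bp of the start, 2 genes without a candidate had a thresholded summit as the nearest, in both cases just outside the window. Farther off, the nearest summit to mrpl-54, 4031 bp upstream, had a signal of 107 (rank 187). At mrps-28 the region V:19643004-19643447 had its summit 1013 bp upstream, with a pooled signal of 94.0 (rank 272), 73.4 in replicate 4 (rank 252) and 19.2 in replicate 5 (rank 1427). It lay in an intron of Y43F8C.7, 39 bp from the snoRNA gene Y43F8C.22. At mrps-21 the region IV:4660320-4660763 had its summit 1025 bp upstream, with a pooled signal of 82.5 (rank 380), 51.8 in replicate 4 (rank 742) and 30.7 in replicate 5 (rank 234). It was intergenic and nearest the start of F29B9.11, and the summit of replicate 5's own region, 974 bp upstream, was inside the window. At mrpl-48 a summit 1597 bp upstream had a signal of 73.3 (rank 562), above that gene's candidate at 29.1.

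Of the 70 genes, 22 (31.4%) lay on chromosome III, which holds 13.2% of all protein-coding genes, and 9 of the 22 (40.9%) had a candidate, beside 40.3% of all genes there. Chromosome IV held 11 (15.7%, beside 16.4% of all genes), of which 9 (81.8%, beside 34.3%) had a candidate. On I lay 15 (21.4%, beside 14.4%), 8 of them with a candidate (53.3%, beside 37.7%). On II lay 12 (17.1%, beside 17.3%), 7 of them with a candidate (58.3%, beside 34.2%), and on V lay 10 (14.3%, beside 25%), 5 of them with a candidate (50%, beside 30.7%). None was on X, which holds 13.7% of all genes. The share with a candidate was at the background on III and above it on the other 4 chromosomes, counts of at most 22 genes that were not tested.

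Genes of related function were set beside them. Of 82 cytosolic ribosomal protein genes, 46 (56.1%) had a candidate, close to the 54.3% of mitochondrial ribosomal protein genes, but 13 of the 46 (28.3%) were thresholded and their median rank was 2513. In both replicates' lists were 34 (73.9%), and 18 (39.1%) were among the 5000 strongest of both. A small RNA gene stood within 500 bp of the summit at 7 of the 46 (15.2%), beside 5.26% of the mitochondrial ribosomal protein genes with a candidate. At 27 (58.7%, beside 55.3%) the summit also lay in another gene's window. Of 70 nuclear genes for respiratory chain subunits and assembly factors, 35 (50%) had a candidate, 7 of the 35 (20%) were thresholded and the median rank was 7410. Those 7 were atp-1, cox-5A, cox-5B, cox-6A, cox-6B, nduc-2 and nduf-2.2, the strongest being cox-5A, a cytochrome c oxidase subunit, at a signal of 224 (rank 24). Of these, cox-6B and nduc-2 shared the same region (rank 484), and the cox-6A summit was within 500 bp of a small RNA gene. The nduf-2.2 summit, 891 bp upstream, also lay in the window of dlc-1. Over the 35 genes, a small RNA gene was that near at 3 (8.57%), and 15 (42.9%) shared the summit with another gene's window. The share with a candidate thus lay within a few percentage points in the 3 lists, while the median rank was weaker for the mitochondrial ribosomal protein genes than for the other two. None of the differences between lists was tested.

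**Figure D5:**
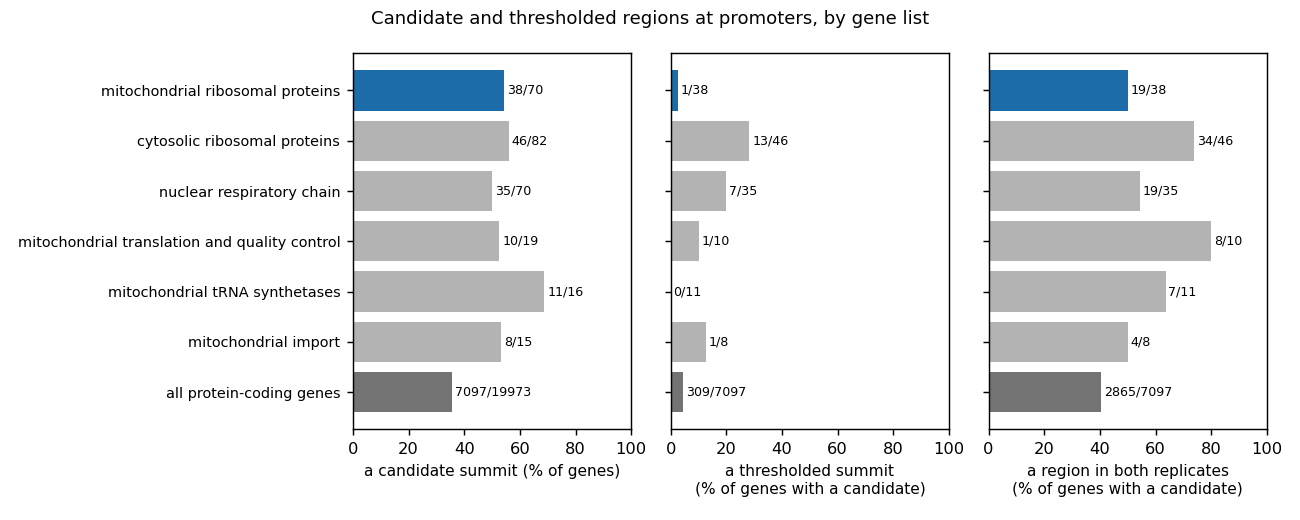
Share of genes with a candidate summit in the promoter window (left), share of those genes with a thresholded summit (middle) and share of those genes with a region in both replicates (right) for the mitochondrial ribosomal protein genes (blue), 5 related lists (light grey) and all protein-coding genes (dark grey), with counts beside the bars. Thresholded summits stood at 1 of 38 mitochondrial and 13 of 46 cytosolic ribosomal protein genes. The lists were made by gene name. Those labelled mitochondrial import and mitochondrial tRNA synthetases hold genes that may act elsewhere, tim-1 among them.

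Other lists of genes, made by name around mitochondrial functions, varied. Of 19 genes for mitochondrial translation and protein quality control (of 23 names, 4 were not in the annotation), 10 had a candidate, 8 of them in both replicates, with a median rank of 3093. The 1 thresholded gene was hsp-60, a mitochondrial chaperonin, with a signal of 144 (rank 86). That summit, 625 bp upstream of hsp-60, also lay in the window of Y22D7AL.10, 188 bp upstream of its start. The regulators of the mitochondrial unfolded protein response ubl-5, dve-1 and atfs-1 had signals of 58.7, 54.2 and 47.5. The matrix protease gene clpp-1 had 47.9, at a summit within 500 bp of a small RNA gene. The elongation factor genes gfm-1 and tufm-2 had signals of 36.1 and 30.1, and the chaperone gene hsp-6, a common reporter of that response, had 27.9. dap-3, whose product is itself a protein of the small mitochondrial subunit although it carries no mrps name, had a signal of 42.4 (rank 3764), 148 bp past its start. That summit was also the nearest to mrps-22, which follows dap-3 on the same strand after 105 bp and has its start 1337 bp downstream of the summit. Of 16 tRNA synthetase genes listed by name as mitochondrial (4 of 20 names were not in the annotation), 11 (68.8%) had a candidate and 0 were thresholded. The strongest was ears-2 at 61.8. The list holds genes such as kars-1, gars-1 and qars-1, whose products may not be confined to mitochondria. Of 15 genes listed by name for mitochondrial import, 8 had a candidate. Their median rank was 17309.5, weaker than the 11004.5 of the mitochondrial ribosomal protein genes. The strongest, tim-1 at 108 (rank 173), was the 1 thresholded gene of the list. It entered the list by name alone and is not an established import gene. The tim-1 summit also lay in the window of Y75B8A.23 and within 500 bp of a small RNA gene. Next was tomm-20 at 73.6 (rank 558). Of 5 genes for mitochondrial genome maintenance, 1 had a candidate, twnk-1, the mitochondrial DNA helicase, at 30.01 (rank 12291).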

How the data were processed

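ZTF-3 ChIP-seq region lists of 2 replicates, 4 and 5, were used as deposited. Candidate regions were derived from each replicate's alignments, or from both, and 1 control, per the file headers; the thresholded list came from them by IDR. The deposited signal (never negative) and the deposited −log10 q are the authors' scores for a region. The genome build is ce11, per the labels, and positions are 1-based. The caller is not given in the sources used here, nor are the aligner and the IDR threshold. The lists hold no read counts, so depth is unknown and no interval on a signal can be given. The labels give the replicates separate biosamples, and name ztf-3 as the antibody in one field and anti-GFP in another.

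Summits were assigned to start sites of Ensembl release 115 protein-coding transcripts with Python 3.11.15, numpy 2.4.6, pandas 2.3.3 and scipy 1.17.1, and figures drawn with matplotlib 3.10.9. Each region was counted for every gene in whose window it lay, and the gene's strongest region by signal was kept. Assignment was tested on simulated data. Sequences came from the RefSeq copy of WBcel235, and protein names from its annotation. The genes, lists and motifs were chosen with earlier results of these data known. The rule named every gene with a candidate, with full values for the 10 of highest signal, any thresholded gene, those within the 2000 strongest of a replicate and those next to the threshold. Genes with summits just outside the window, and genes of other lists, were named after their values were seen. Alternatives changed the window, the start sites, the assignment, the overlap that counts as shared, the number of strongest regions and the thresholded list, left out regions near small RNA genes, or used 1 replicate's list alone.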

Additional observations from a re-analysis of the deposited data

How the results depend on the processing

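The 38 genes with a candidate (54.3%, beside 35.5% of all genes) became 29 to 39 under the alternatives. The smallest difference from all genes was in replicate 4's list alone (29, 41.4%, beside 35.6%); a 500 bp upstream window gave 33 (47.1%, beside 25.6%) and nearest starts 32 (45.7%, beside 30.6%). The 1 thresholded gene, mrpl-23, was lost with either 500 bp upstream window (0 with 200 bp and 0 with 500 bp downstream). It was also lost without regions near small RNA genes (0). With 1 replicate's list alone the count ran from 0 (replicate 4) to 2 (replicate 5: mrpl-23 and mrps-21). A single replicate's list has no IDR step of its own, so these 2 counts do not measure passing it. In replicate 4 the mrpl-23 region had rank 224, but its summit fell outside the window. The median rank of 11004.5 was 12299.5 with nearest starts only (all genes 12312) and 12299.5 without regions near small RNA genes (all genes 12431), and ran from 9745 to 11311 with 1 replicate's list alone. The 19 genes in both replicates became 11 when replicate summits had to lie within 100 bp (28.9%, beside 27.4%). The 4 genes among the 5000 strongest of both (10.5%, beside 8.92%) became 1 among the 2000 strongest (2.63%, beside 5.26%), and 2 with 500 bp upstream and 200 bp downstream (6.06%, beside 9.03%) or 500 bp downstream (5.13%, beside 7.86%), so that the share fell below that of all genes. Apart from these, each count stayed within 1.5 times of its main value, and the median rank within 1107 of its own. That limit is the SD of the medians from each replicate's list alone (n = 2). Those medians are among the alternatives and cover different genes, so the SD does not measure replicate noise in the pooled median. No paired analysis was possible because there is 1 group.

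With 2 replicates, 1 control, no untagged strain and no read counts, weak candidates cannot be told from background, and the signal of a region cannot be given an error.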
